A study of Mus musculus with 33 samples.

Results

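The Kruppel-like factors examined here were the 10 family members *Klf2*, *Klf3*, *Klf4*, *Klf6*, *Klf7*, *Klf9*, *Klf10*, *Klf11*, *Klf13* and *Klf16*, taken by gene symbol from the counts of 24421 genes in 33 bulk RNA-seq samples of sorted macrophages (macs). The samples were liver Kupffer cells (KCs) and lung alveolar macs (AMs) of mice of 6 to 8 weeks, male and female, on the C57Bl/6 background. Every mouse carried floxed *Zeb2* (Zeb2fl/fl), and littermates without CRE served as controls. The 6 groups were control KCs (n = 6) and control AMs (n = 5) from Zeb2fl/fl littermates, Tim4+ KCs (n = 6) and Tim4- KCs (n = 6) from Clec4f-crexZeb2fl/fl animals, and CD11b- AMs (n = 5) and CD11b+ AMs (n = 5) from Itgax-crexZeb2fl/fl animals. *Clec4f-cre* is active in KCs but also marked a minor population of B cells, and *Itgax-cre* is active in other CD11c-expressing cells besides AMs. The sorted CRE+ populations hold cells that kept a *Zeb2* allele as well as cells that lost both, and the Cre line differs with the tissue, so tissue and Cre line cannot be told apart in any comparison between CRE+ KCs and CRE+ AMs. Nothing in the labels states that replicates came from separate animals, so p-values measure the spread between these samples.

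Kruppel-like factors are transcription factors with C-terminal zinc fingers that bind CACCC and GC-rich boxes in promoters. *Klf2*, *Klf4*, *Klf6* and *Klf7* encode members that can activate transcription, with KLF2 known for holding myeloid cells and endothelium quiescent and KLF4 for monocyte and mac differentiation. *Klf3* encodes a repressor that recruits the co-repressor CtBP. *Klf9*, *Klf10*, *Klf11*, *Klf13* and *Klf16* encode members that bind the co-repressor Sin3a. *Klf10* and *Klf11* were first described as genes induced early by TGF-beta, and *Klf9* is induced by glucocorticoids and thyroid hormone.

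Promoter sequence (RefSeq, GRCm38.p6) was found for 8 of the 10 members, and none was at hand for *Klf10* and *Klf16*. In the 250 bases ahead of the RefSeq start, the GC box CCGCCC, read on both strands, was found in 7 of these 8 promoters and in 32.9% of all 27025 promoters, and the KLF box CACCC in 5 of 8 and in 51.3% of all. The members' promoters are rich in G and C, from 59.2% in *Klf7* to 78.4% in *Klf3*, against a median of 52% over all promoters. ZEB2 is a zinc finger factor that binds E-box-like sequence. Its short box CACCT was found in 1 of 8 members, *Klf9*, 143 bases ahead of the start, and in 45.8% of all promoters. The longer form CACCTG, which holds the short box, was found in 0 of the 8 members and in 17.1% of all promoters. A match of letters is a description and not a binding site. The 4 sequences below are those of *Klf9* and *Klf11*, which were lower in both CRE+ AM populations, and of *Klf2* and *Klf4*, which had opposite tissue patterns. They are given 5′ to 3′ on the strand of the gene up to the start of the annotated gene, with the short ZEB2 box, the KLF box and the GC box, on either strand, in capitals.
*Klf9*, chr19:23140976-23141225, plus strand: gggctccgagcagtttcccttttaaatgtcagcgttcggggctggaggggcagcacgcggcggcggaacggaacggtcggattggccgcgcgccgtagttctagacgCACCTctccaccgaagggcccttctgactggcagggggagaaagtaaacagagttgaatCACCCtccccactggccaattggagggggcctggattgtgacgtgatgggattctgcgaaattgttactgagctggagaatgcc
*Klf11*, chr12:24651121-24651273, plus strand: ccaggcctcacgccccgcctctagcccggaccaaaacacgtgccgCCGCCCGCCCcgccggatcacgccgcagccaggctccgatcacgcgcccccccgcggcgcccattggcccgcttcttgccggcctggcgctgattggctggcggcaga
*Klf2*, chr8:72318812-72319032, plus strand: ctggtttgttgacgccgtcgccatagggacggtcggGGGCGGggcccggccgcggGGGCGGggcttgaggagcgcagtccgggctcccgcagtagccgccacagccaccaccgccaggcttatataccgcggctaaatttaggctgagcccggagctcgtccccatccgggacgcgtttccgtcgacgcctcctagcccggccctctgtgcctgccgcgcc
*Klf4*, chr4:55532476-55532725, minus strand: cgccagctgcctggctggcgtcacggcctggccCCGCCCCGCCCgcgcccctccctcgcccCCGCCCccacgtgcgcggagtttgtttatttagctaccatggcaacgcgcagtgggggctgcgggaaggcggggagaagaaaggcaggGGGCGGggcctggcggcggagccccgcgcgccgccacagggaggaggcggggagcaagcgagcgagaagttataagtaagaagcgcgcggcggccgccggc
The capitals in *Klf9* mark the ZEB2 box and, nearer to the start, a KLF box, while those in *Klf11*, *Klf2* and *Klf4* mark GC boxes, which overlap each other in *Klf11* and *Klf4*. Further boxes of *Klf11* and *Klf2* lie past the printed end. *Klf9* was the member without a GC box in this window.

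The gene counts of a sample summed to 9837240 at the lowest, in replicate 1 of the Tim4- KCs, and to 24332306 at the highest. *Zeb2* was lower in all CRE+ groups than in their controls, with log2 fold changes of -0.71 and -0.76 in Tim4+ and Tim4- KCs and -0.89 and -1.66 in CD11b- and CD11b+ AMs, but the floxed allele leaves a truncated mRNA with its 3′ end, so its counts do not measure deletion. KC markers had a summed level of 21942 to 24007 CPM (read counts scaled to library size with TMM factors) in control KCs and 65.5 to 87.1 CPM in control AMs, and AM markers 18553 to 29035 CPM in control AMs and 317 to 1159 CPM in control KCs, of which *Car4* and *Krt79* had no count in control KCs. KC replicates 5 and 6 of each group had counts of Y-linked genes, 138 to 174 CPM over 4 genes, while all other samples had at most 0.177 CPM. Among controls, 2 of 6 KC samples and 0 of 5 AM samples had such counts, so the 2 tissues differ in this too. In bulk samples, fewer cells of a type and less RNA per cell cannot be told apart.

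Set against the length of their merged exons, *Klf2* was the highest member in KCs and *Klf6* in AMs. In control KCs the order was *Klf2*, 189 ± 34.5 CPM per kilobase (SD, n = 6), then *Klf10* with 48.1 ± 9.04 and *Klf6* with 47.7 ± 6.14, which did not differ beyond their spread, then *Klf13* with 16.1 ± 2.05 and *Klf3* with 11.96 ± 1.57. The other 5 members were between 1.63 CPM per kilobase for *Klf4* and 5.29 for *Klf9*. In control AMs *Klf6* had 81.6 ± 5.53 CPM per kilobase (SD, n = 5), *Klf10* 61.0 ± 9.04 and *Klf2* 55.4 ± 11.0, the last 2 within their spread of each other, and *Klf4*, the lowest member in KCs, followed with 32.9 ± 4.11. *Klf7* was the lowest member in control AMs, at 1.44 ± 0.189 CPM per kilobase. In CD11b+ AMs *Klf10* stood at 18.3 ± 2.63 CPM per kilobase, behind *Klf6*, *Klf2*, *Klf4* and *Klf13*. With the length of the longest transcript in place of merged exons, *Klf3* had 25.8 CPM per kilobase in control KCs and 13.2 in control AMs, and *Klf10* 66.1 and 83.7, the last beside 84.8 for *Klf6*.

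**Figure D1:**
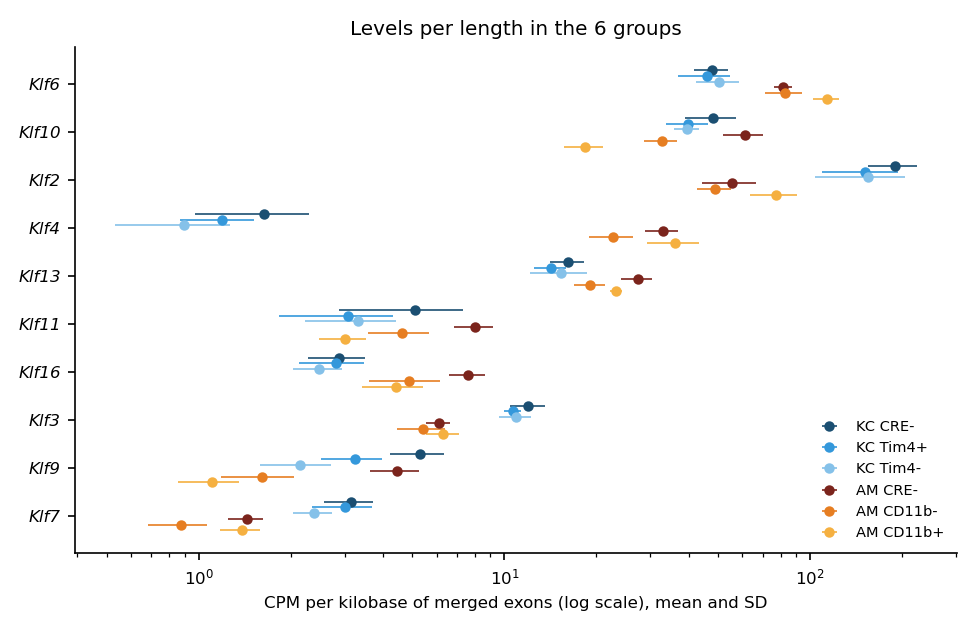
Level of each member in the 6 groups, as mean and SD of CPM per kilobase of merged exons on a log axis, with members ordered by control AMs. *Klf2* lay highest in all 3 KC groups and *Klf6* in all 3 AM groups, and *Klf4* was the member with the widest gap between KCs and AMs.

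Control KCs and control AMs were compared to see which members mark each tissue. Of the 10 members, all of which passed the filter on low counts, 3 were higher in KCs and 5 lower (adjusted p under 0.05 in the quasi-likelihood test of edgeR), where 33.3% of the 12145 genes tested were higher and 29.9% lower. Of the members, 4 also passed 2-fold, against 33.3% of all genes. The median log2 fold change was -0.48 over the members and 0.03 over all genes.

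*Klf4* (chromosome 4, 55527143 to 55532466, minus strand, GRCm38) showed the largest difference. Its level was 2.84, 4.92 and 7.79 CPM at the lowest, median and highest of the 6 control KC samples, and 86.6, 87.2, 105.9, 109.3 and 112.8 CPM in the 5 control AM samples. The groups did not overlap, and *Klf4* was 20.04-fold lower in KCs (log2 fold change -4.32, SE 0.23, adjusted p = 6.18e-10). *Klf2* (chromosome 8, 72319033 to 72321656, plus strand) had the opposite pattern, with 289 CPM at the lowest, 333 at the median and 463 at the highest of the control KC samples and 68.7, 99.0, 111.6, 111.9 and 120.3 CPM in control AMs. It was 3.43-fold higher in KCs without overlap (log2 fold change 1.78, SE 0.15, adjusted p = 9.91e-08). *Klf7* (chromosome 1, 64029447 to 64122282, minus strand), known from neuronal and adipose biology, was 2.20-fold higher in KCs (25.6 ± 4.67 against 11.7 ± 1.54 CPM, adjusted p = 7.83e-06). Its counts are uncertain, since 39.3% of its exon bases overlap the antisense lincRNA gene *Gm26649* and the strand setting of the counting is not given in the sources used here. *Klf6* (chromosome 13, 5861482 to 5870394, plus strand), an injury-induced member, was lower in KCs, with 210 ± 27.0 CPM (SD, n = 6) against 358 ± 24.3 CPM (SD, n = 5), so that the log2 difference was -0.76 (SE 0.09, adjusted p = 2.25e-06). The repressor gene *Klf3* (chromosome 5, 64803388 to 64832901, plus strand) was higher in KCs, with 135 ± 17.6 against 68.7 ± 6.18 CPM (log2 difference 0.98, SE 0.09, adjusted p = 3.98e-07).

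Among the Sin3a-binding members, *Klf16* (chromosome 10, 80567124 to 80577321, minus strand) was 2.62-fold lower in KCs (7.71 ± 1.63 against 20.4 ± 2.80 CPM, adjusted p = 4.28e-06), and *Klf13* (chromosome 7, 63886351 to 63938915, minus strand), which regulates *Ccl5* in T cells, was 1.68-fold lower (121 ± 15.4 against 205 ± 23.9 CPM, adjusted p = 1.18e-05). *Klf10* (chromosome 15, 38291463 to 38300706, minus strand) was lower in KCs by 0.33 on the log2 scale (SE 0.13, adjusted p = 0.0396) with overlapping groups, and leaving out any 1 of 8 of the 11 samples ended the call, with adjusted p-values of 0.0519 to 0.112, as did RLE factors (0.0671), a minimum of 10 counts in every sample (0.0601) and KC replicates 1 to 4 alone (0.124). *Klf11* (chromosome 12, 24651274 to 24662789, plus strand) had a log2 fold change of -0.64 (SE 0.27) that missed the threshold at an adjusted p of 0.0521 and passed it when AM replicate 5, KC replicate 2 or KC replicate 3 was left out (0.0223 to 0.0436), with limma-voom (0.0171) and with DESeq2 (0.0424). *Klf9* (chromosome 19, 23141226 to 23168134, plus strand) had 25.5 ± 5.16 CPM in KCs and 21.4 ± 3.88 CPM in AMs, with an approximate 95% interval of the log2 fold change from -0.05 to 0.57 (adjusted p = 0.174).

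Genes induced within minutes of stimulation or tissue dissociation differed in the same comparison. Their list of 16 genes had a summed level of 938 to 1319 CPM in control KCs and 8699 to 9763 CPM in control AMs, with 14 genes lower in KCs and 1 higher, among them *Egr2* (log2 fold change -7.49), *Btg2* (-3.56) and *Nr4a1* (-5.72). *Klf4*, *Klf6* and *Klf10* are known to be induced early as well, and the part of this response in their tissue difference was not tested. Liver endothelial markers were also present in the KC samples, at 730 to 2151 CPM summed over 10 genes against 3.03 to 6.06 CPM in control AMs, and their part in the level of *Klf2*, a gene abundant in endothelium, was not tested. Of 10 hepatocyte genes, 9 were higher and 1 lower in control KCs, against 33.3% and 29.9% of all genes. They summed to 2175 to 3168 CPM in control KCs and 2956.5 to 3552 CPM in control AMs, where only 5 had a count. The part of these genes in the members' levels was not tested.

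**Figure D2:**
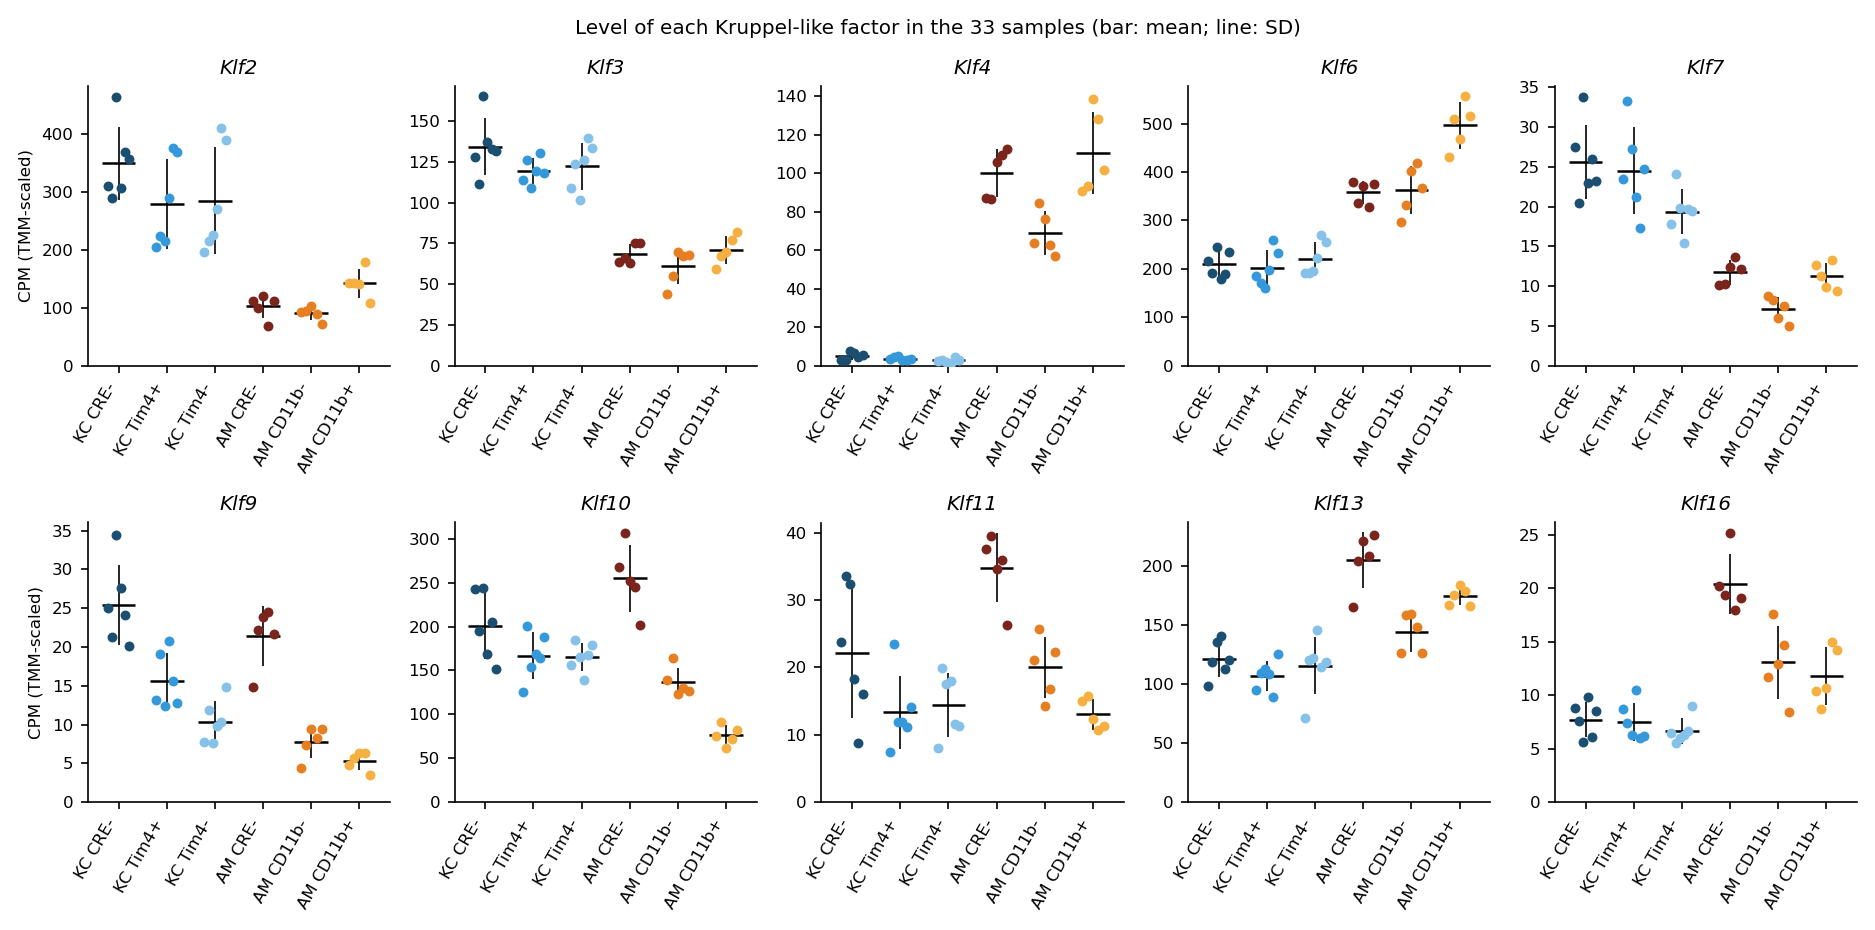
CPM of each member in every sample of the 6 groups, with the mean as a bar and the SD as a line. *Klf2*, *Klf3* and *Klf7* were higher in control KCs than in control AMs and *Klf4* lower, and *Klf9*, *Klf10* and *Klf11* fell from control AMs to CD11b- AMs and further to CD11b+ AMs.

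Tim4+ and Tim4- KCs of CRE+ animals were each set against control KCs, which both comparisons share, to find members that differ in these populations. The paper ties Tim4 on KCs to time spent in the tissue. It defines Tim4- KCs that kept a *Zeb2* allele as putative monocyte-derived KCs. In Tim4- KCs, origin and loss of *Zeb2* therefore cannot be told apart. In Tim4+ KCs 1 of 10 members was lower and none was higher, against 2.46% and 3.63% of the 12500 genes tested (edgeR). DESeq2 and limma-voom also called 1 member, and at an unadjusted p under 0.05 edgeR had 3 lower and 0 higher. No member passed 2-fold, against 2.31% of all genes. In Tim4- KCs 3 members were lower and none higher, against 13.2% and 12.2%, with 5 lower and 0 higher at an unadjusted p under 0.05, and 1 passed 2-fold, against 8.82%. Over the members the median log2 fold change was -0.25 and -0.31 in the Tim4+ and Tim4- populations, and over all genes -0.0031 and -0.03.

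*Klf9* was the member that fell in both KC populations. It had 20.2, 24.6 and 34.5 CPM at the lowest, median and highest of the control KC samples, 12.4, 14.4 and 20.8 CPM in Tim4+ KCs and 7.65, 10.1 and 14.8 CPM in Tim4- KCs. Every Tim4- sample lay below every control sample, while the highest Tim4+ sample was above the lowest control. The fall was 1.65-fold in Tim4+ KCs (log2 fold change -0.72, SE 0.18, adjusted p = 0.0183) and 2.48-fold in Tim4- KCs (log2 fold change -1.31, SE 0.18, adjusted p = 2.28e-05). The Tim4+ call was lost without control replicate 3 or Tim4+ replicate 1, 3 or 6 (adjusted p of 0.0501 to 0.0589) and with KC replicates 1 to 4 alone, where the log2 fold change was -0.76 at an adjusted p of 0.0952. Over all alternatives its adjusted p ranged from 0.00370 to 0.205, the highest with replicates 5 and 6 alone, where the Tim4- call was lost as well (log2 fold change -0.84, adjusted p = 0.0657).

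*Klf4* and *Klf7* were the other members lower in Tim4- KCs, at log2 fold changes of -0.88 (SE 0.32, adjusted p = 0.0481) and -0.42 (SE 0.15, adjusted p = 0.0447), and both overlapped the controls. *Klf4* had only 1.36, 2.78 and 4.52 CPM at the lowest, median and highest of the Tim4- samples. The call was lost without any 1 of 9 of 12 samples for *Klf4* (adjusted p of 0.0565 to 0.130) and of 8 of 12 for *Klf7* (0.0606 to 0.124), and limma-voom (0.0652 and 0.0644), RLE factors (0.0515 and 0.0538) and the unfiltered table (0.0665 and 0.0615) ended both calls. Liver endothelial markers moved in the same direction: all 10 were lower in Tim4- than in control KCs, and their summed level was 440 to 587 CPM in Tim4- KCs against 730 to 2151 CPM in controls and 1225 to 3594 CPM in Tim4+ KCs. Their part in the levels of *Klf4* and *Klf7* was not tested. Immediate-early genes moved the other way, with 9 of 16 higher in Tim4- KCs and none lower, at a summed 1298 to 2366 CPM against 938 to 1319 CPM in controls. KC markers were lower in both populations, 6 of 6 in Tim4- KCs and 5 of 6 in Tim4+ KCs, at a summed 9387 to 11172 CPM and 12802 to 14340 CPM against 21942 to 24007 CPM in controls. The list includes *Timd4*, which encodes Tim4, so its level in these populations is not independent of the sort. Of 7 monocyte markers 6 could be tested, and 3 were higher and 1 lower in Tim4- KCs, at a summed 378 to 933 CPM against 197 to 336 CPM in controls without overlap, while 2 were higher in Tim4+ KCs, at 179 to 506 CPM with overlap. Of the 3 eosinophil genes only *Ccr3* could be tested, which was higher in both populations. The list summed to 144 to 680 CPM in Tim4- KCs, 109.98 to 595 CPM in Tim4+ KCs and 43.1 to 61.2 CPM in controls. The paper also lists *Ccr3* among genes that differ between monocyte-derived and embryonic KCs. *Prg2* had no count in control KCs and *Epx* none in any KC group. The part of these genes in the KC results was not tested.

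The remaining members gave no call in either KC population. *Klf10* had a log2 fold change of -0.29 in the Tim4+ population (adjusted p = 0.202) and -0.30 in the Tim4- population (0.0713), and *Klf11* -0.75 (0.178) and -0.64 (0.129). In Tim4- KCs, *Klf10* passed without control replicate 6 (-0.37, adjusted p = 0.0247) and *Klf11* without control replicate 5 (-0.80, 0.0432). *Klf11* was widely spread among control KCs, from 8.71 to 33.6 CPM. For *Klf6* the approximate 95% intervals of the log2 fold change ran from -0.32 to 0.16 and from -0.18 to 0.30. For *Klf3* they ran from -0.37 to -0.01 and from -0.34 to 0.02. The first of these left out 0, but the unadjusted p of *Klf3* in Tim4+ KCs was 0.0543 in edgeR. For *Klf13* they ran from -0.46 to 0.05 and from -0.34 to 0.16, and for *Klf16* from -0.44 to 0.32 and from -0.62 to 0.14.

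*Klf2* split the CRE+ KC samples by replicate number. In Tim4+ KCs, replicates 1 to 4 had 204, 223, 215 and 289 CPM and replicates 5 and 6 had 376 and 369 CPM. In Tim4- KCs, replicates 1 to 4 had 196, 215, 226 and 271 CPM and replicates 5 and 6 had 409 and 389 CPM. The samples with Y-linked counts were therefore the highest in both CRE+ groups, whereas in control KCs replicates 5 and 6, at 368 and 356 CPM, lay within the range of replicates 1 to 4, from 289 to 463 CPM. Over all 6 replicates *Klf2* gave no call in the Tim4+ (log2 fold change -0.34, adjusted p = 0.410) or Tim4- population (-0.31, 0.257). Within replicates 1 to 4 it was lower in Tim4- KCs, at -0.60 (adjusted p = 0.0149), and -0.58 in Tim4+ KCs (0.0648). Within replicates 5 and 6 the log2 fold change was 0.12 in Tim4- KCs (adjusted p = 0.506) and 0.02 in Tim4+ KCs (0.939). With Y-linked counts as a term, *Klf2* in Tim4- KCs had -0.38 (adjusted p = 0.0468). This fit and that of replicates 5 and 6 alone were chosen after the data were seen, so they are no independent test of the split. *Klf6* had the same order of samples, with 234 and 260 CPM in replicates 6 and 5 of Tim4+ KCs against 160 to 198 CPM in replicates 1 to 4, and 256 and 271 CPM against 191 to 222 CPM in Tim4- KCs. The summed immediate-early genes had it too, at 1531 and 1760 CPM in replicates 5 and 6 of Tim4+ KCs against 1081 to 1271 CPM in replicates 1 to 4, and at 2366 and 2321 CPM against 1298 to 1859 CPM in Tim4- KCs, while replicates 5 and 6 of control KCs, at 1168 and 1307 CPM, lay within the range of replicates 1 to 4, from 938 to 1319 CPM. Their part in the split of *Klf2* and *Klf6* was not tested. No test compared the change in replicates 5 and 6 with that in replicates 1 to 4.

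**Figure D3:**
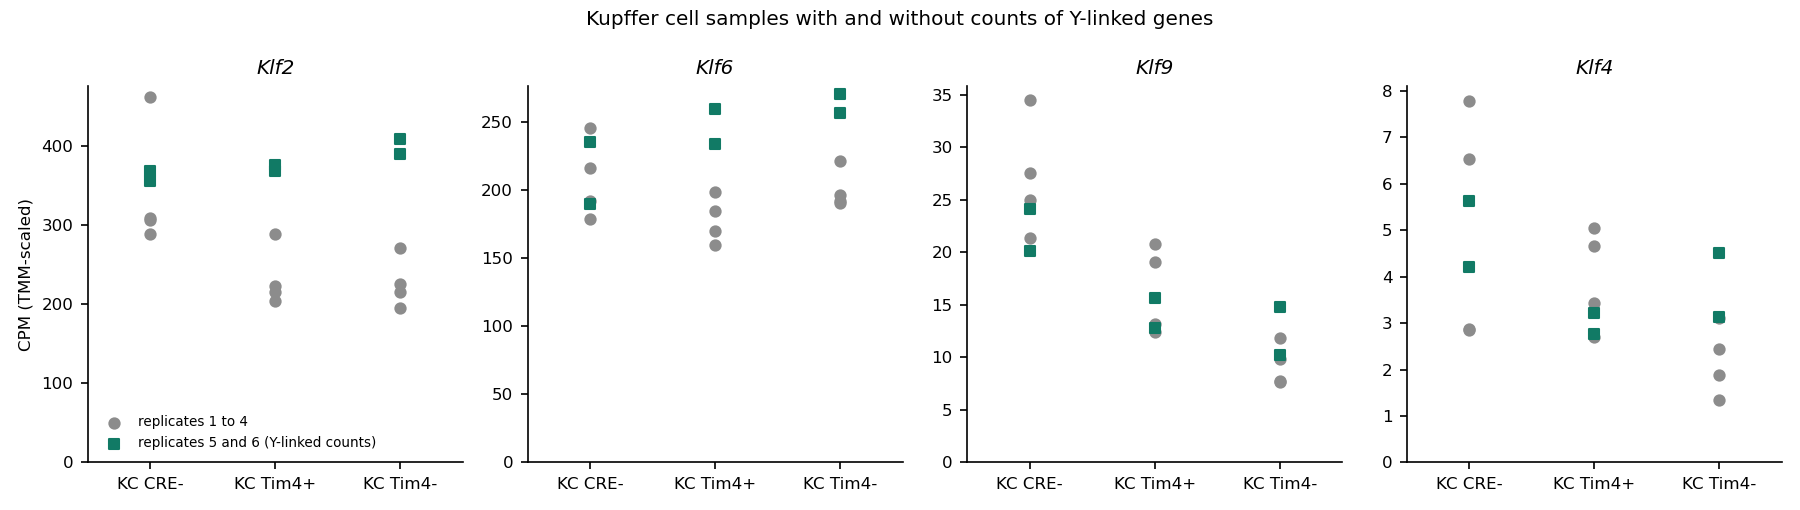
CPM of *Klf2*, *Klf6*, *Klf9* and *Klf4* in each KC sample, with replicates 5 and 6, which had Y-linked counts, as green squares and replicates 1 to 4 as grey circles. In both CRE+ groups the squares lay above every circle for *Klf2* and *Klf6*, which was not so in control KCs, while for *Klf9* both kinds of sample were lower in Tim4- than in control KCs.

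Tim4- KCs were also compared with Tim4+ KCs of CRE+ mice, in which same-numbered samples deviated together. *Klf9* was the 1 member lower in Tim4- KCs and none was higher in edgeR, against 7.62% and 3.84% of all genes, with 2 lower and 0 higher at an unadjusted p under 0.05. None passed 2-fold, against 5.45%, and DESeq2 called 1 member and limma-voom 0. Its log2 fold change was -0.59 (SE 0.18, adjusted p = 0.0401). With the replicate number as a block it was -0.59 at an adjusted p of 0.0555, and leaving out any 1 of 7 of the 12 samples also ended the call (0.0575 to 0.107). Of the 10 liver endothelial markers 9 were lower in Tim4- than in Tim4+ KCs, at the summed levels given above. In the KC list, which includes the sort marker gene *Timd4*, 4 of 6 were lower. The part of both lists in the level of *Klf9* was not tested.

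CD11b- and CD11b+ AMs of CRE+ animals were each set against the same control AMs. In CD11b- AMs 7 of 10 members were lower and none was higher in edgeR, DESeq2 and limma-voom, against 12.4% and 13.3% of the 11573 genes tested, and 1 passed 2-fold, against 6.5%. All 7 were below every control sample. The median log2 fold change was -0.60 over the members and 0.0027 over all genes. In CD11b+ AMs 5 members were lower and 2 higher, against 20.5% and 22.8%, with 3 past 2-fold against 15.3%. Of these 7 members, 5 did not overlap the controls. How many of all genes separated from the controls in this way was not counted for either population, so these counts have no share to be set against. The median was -0.16 over the members and -0.0052 over all genes.

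*Klf9*, *Klf10* and *Klf11* had the largest falls in both AM populations. *Klf9* had 14.8, 21.7, 22.2, 23.9 and 24.5 CPM in control AMs, 4.41, 7.31, 8.25, 9.46 and 9.47 CPM in CD11b- AMs and 3.48, 4.76, 5.73, 6.27 and 6.30 CPM in CD11b+ AMs. All CRE+ samples lay below all controls, at a 2.77-fold lower level in CD11b- AMs (log2 fold change -1.47, SE 0.21, adjusted p = 3.14e-05) and 4.07-fold lower in CD11b+ AMs (-2.03, SE 0.22, adjusted p = 2.05e-07). *Klf10* had 202, 245, 252, 268 and 306 CPM in control AMs, 123, 126, 130, 140 and 164 CPM in CD11b- AMs and 62.2, 71.8, 75.2, 81.7 and 91.5 CPM in CD11b+ AMs. The 3 groups did not overlap, and the falls were 1.88-fold (-0.91, SE 0.11, adjusted p = 5.23e-06) and 3.37-fold (-1.75, SE 0.11, adjusted p = 1.59e-10). *Klf11* had 26.3, 34.6, 36.0, 37.5 and 39.6 CPM in control AMs, 14.2, 16.8, 21.1, 22.3 and 25.7 CPM in CD11b- AMs and 10.7, 11.3, 12.3, 15.1 and 15.8 CPM in CD11b+ AMs. Here CD11b+ and CD11b- samples overlapped, while all were below the controls (1.75-fold, adjusted p = 0.000846, and 2.70-fold, adjusted p = 5.08e-07). *Klf10* and *Klf11* varied together over the 15 AM samples, with Pearson's r = 0.956 of their log2 CPM, a value that the 3 groups themselves contribute to.

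The other Sin3a-binding members were lower too. *Klf16* had 20.4 ± 2.80 CPM (SD, n = 5) in control AMs, 13.05 ± 3.42 CPM in CD11b- AMs and 11.8 ± 2.68 CPM in CD11b+ AMs, at log2 fold changes of -0.65 (adjusted p = 0.0130) and -0.80 (0.00142). *Klf13* had 205 ± 23.9, 144 ± 16.5 and 174 ± 7.63 CPM, at -0.52 (adjusted p = 0.00016) and -0.25 (0.0244). The CD11b+ call of *Klf13* was lost without control replicate 3 or 5 or CD11b+ replicate 1 or 5 (adjusted p of 0.0518 to 0.0681) and in the fit of all 33 samples (0.152).

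The activator members differed between the 2 AM populations. *Klf4* was lower in CD11b- AMs, with 56.9, 62.9, 63.7, 76.5 and 84.7 CPM, all below the lowest control at 86.6 CPM (log2 fold change -0.55, SE 0.13, adjusted p = 0.00342, or 0.0873 in the fit of all 33 samples), and had 90.9, 93.2, 101.8, 128.1 and 138.5 CPM in CD11b+ AMs, with an interval of the change from -0.13 to 0.37. *Klf7* was lower in CD11b- AMs (7.11 ± 1.55 against 11.7 ± 1.54 CPM, log2 fold change -0.73, adjusted p = 0.00343) and had 11.2 ± 1.69 CPM in CD11b+ AMs, with an interval from -0.41 to 0.25. *Klf6* had 297, 331, 368, 402 and 419 CPM in CD11b- AMs (interval from -0.16 to 0.18) and rose in CD11b+ AMs to 432, 468, 510, 515 and 558 CPM, all above the highest control at 381 CPM (1.37-fold, adjusted p = 0.000292). *Klf2* also rose in CD11b+ AMs, to 107, 141, 142, 143 and 178 CPM (1.37-fold, SE 0.14 on the log2 scale, adjusted p = 0.0100, or 0.0598 in the fit of all 33 samples), with overlap, and had an interval from -0.46 to 0.08 in CD11b- AMs. *Klf3* gave no call in either population, at -0.18 (adjusted p = 0.284) and 0.03 (0.852).

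**Figure D4:**
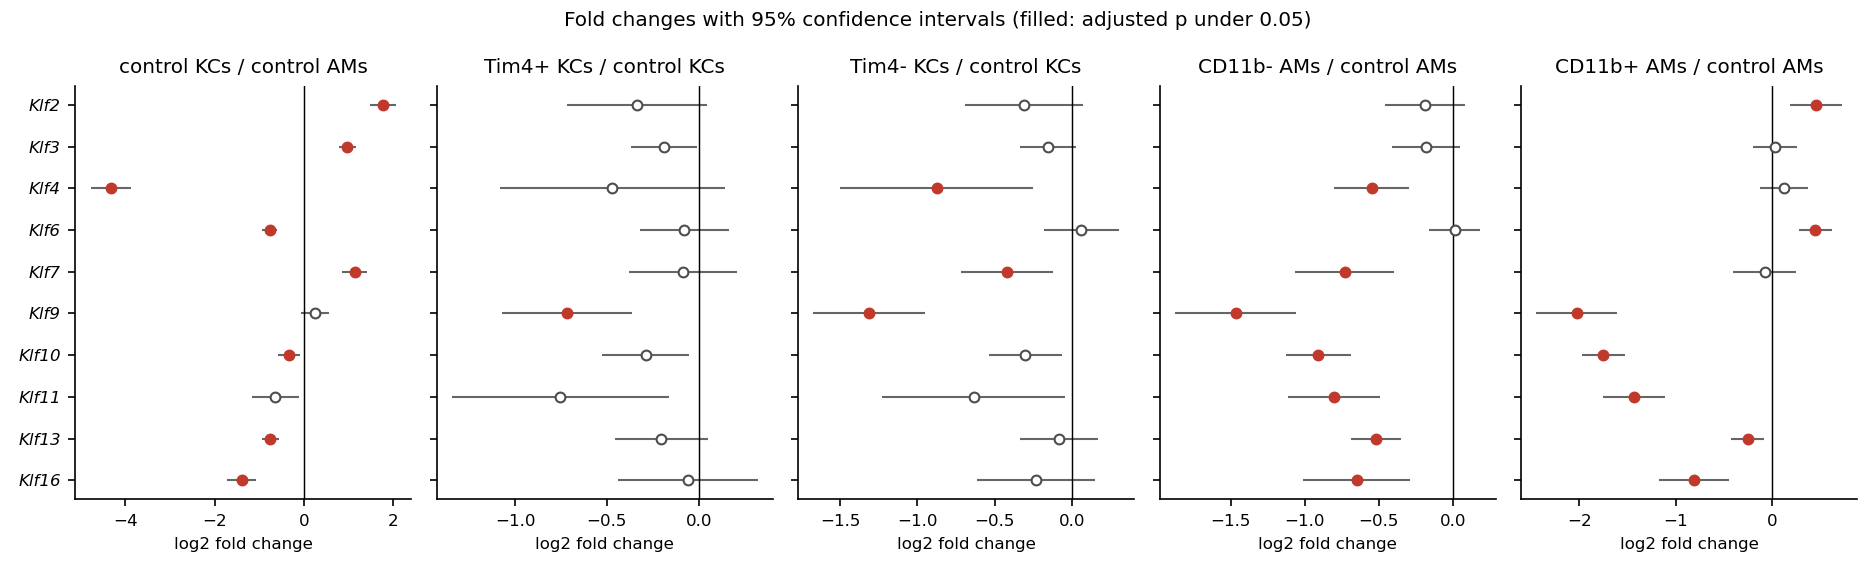
Log2 fold change of each member with its approximate 95% interval in 5 comparisons, each with its own axis, with filled points for an adjusted p under 0.05 in edgeR. In CD11b- AMs 7 members were lower, in CD11b+ AMs 5 were lower and *Klf2* and *Klf6* higher, and *Klf9* was lower in all 4 CRE+ populations.

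Between the 2 CRE+ AM populations, *Klf2*, *Klf4*, *Klf6*, *Klf7* and *Klf13* were higher in CD11b+ AMs and *Klf9*, *Klf10* and *Klf11* lower, so 5 members were higher and 3 lower where 19.8% and 16.6% of all genes were, and none passed 2-fold, against 10.2%. The log2 fold changes of the 5 higher members ran from 0.27 for *Klf13* (adjusted p = 0.0195) to 0.67 for *Klf4* (adjusted p = 0.000382). All 5 were higher in every CD11b+ than in every CD11b- sample, but the share of all genes that separated so was not counted. *Klf10* was lower by 0.84 on the log2 scale (SE 0.11, adjusted p = 7.59e-06) without overlap, while *Klf11* (-0.63, adjusted p = 0.00486) and *Klf9* (-0.56, adjusted p = 0.0484) overlapped. The *Klf9* call was lost without any 1 of 7 of the 10 samples (adjusted p of 0.0605 to 0.122) and with limma-voom (0.151), and that of *Klf13* without CD11b- replicate 1 or 5 (0.0608 and 0.0597). In the fit of all 33 samples 5 of the 8 remained past the threshold, without *Klf9* (0.0584), *Klf11* (0.105) and *Klf13* (0.0970).

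Genes of other programmes moved with the AM groups, where over all genes 13.3% were higher and 12.4% lower in CD11b- AMs. In CD11b+ AMs these shares were 22.8% and 20.5%. Immediate-early genes were lower in CD11b- AMs, 10 of 16 with 3 higher, at a summed 6012 to 7552 CPM against 8699 to 9763 CPM in controls, and in CD11b+ AMs 6 were lower and 6 higher at 7831 to 9573 CPM. Within the list *Egr2* fell in the order of *Klf10* (log2 fold change -0.995 and -2.06), whereas *Ier3* rose (1.59 and 3.06). The neutrophil list summed to 6.58 to 9.69 CPM in control AMs, 716 to 2294 CPM in CD11b- AMs and 7776 to 10088 CPM in CD11b+ AMs, led by *S100a8*, *S100a9* and *Cxcr2*, and of its 7 genes 5 could be tested, with 3 higher in CD11b- AMs and 5 higher in CD11b+ AMs. Of the granule protein genes expressed by neutrophil precursors, *Mpo* had no count in any of the 3 groups and *Ngp* none in control or CD11b- AMs. Monocyte genes summed to 1791 to 2429 CPM in controls, 647 to 1105 CPM in CD11b- AMs and 1154 to 1644 CPM in CD11b+ AMs. A large part of each sum was *Nr4a1*, which is also in the immediate-early list. Its mean was 1226 CPM in controls, 778 CPM in CD11b- AMs and 763 CPM in CD11b+ AMs. Gene by gene, 1 of 7 was higher and 2 lower in CD11b- AMs, and 5 were higher and 2 lower in CD11b+ AMs, where 6 were higher than in CD11b- AMs. Lung epithelial genes summed to 1078 to 1155, 1322 to 1707 and 1385 to 1847 CPM. That list includes *Epcam*, whose protein the paper reports on AMs that had lost *Zeb2*. The part of these programmes in the changes of the members was not tested.

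An interaction term asked whether the mean change in both CRE+ KC populations differed from that in both CRE+ AM populations. It was past the threshold for 2 members, both with less of a fall in KCs, and for none in the other direction, against 10% and 9.52% of the 13294 genes tested (edgeR, with DESeq2 and limma-voom also at 2), with 1 past 2-fold against 8.15%. *Klf10* differed by 1.04 on the log2 scale (SE 0.15, adjusted p = 3.11e-06), and *Klf9* by 0.74 (SE 0.24, adjusted p = 0.0291). The *Klf10* call held without any single sample, while that of *Klf9* was lost without control AM replicate 3 or 4 or control KC replicate 2 or 6 (adjusted p of 0.0528 to 0.0612) and with KC replicates 1 to 4 alone (0.58, adjusted p = 0.161). With those KC samples alone *Klf2* (-0.74, adjusted p = 0.00751) and *Klf6* (-0.41, 0.0219) passed instead, in the other direction. *Klf16* (0.59, adjusted p = 0.0721) passed without CD11b- AM replicate 2 (0.0411) or control KC replicate 4 (0.0458).

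Few of the other genes of the family could be tested. Of the 7 remaining *Klf* genes, *Klf14* and *Klf17* had no count in any sample, where 3 counts would be 0.123 CPM in the deepest and 0.306 CPM in the shallowest library, and 2 could be tested between control KCs and AMs. *Klf8*, a CtBP-binding relative of *Klf3*, had 5.48 to 11.9 CPM in control AMs and no count in the 6 control KC samples, and it was higher in CD11b+ AMs (log2 fold change 0.63, adjusted p = 0.0185). *Klf15*, which is known for metabolic control in liver and muscle, had 3.88 to 12.2 CPM in control KCs and 0 to 1.79 CPM in Tim4- KCs (log2 fold change -3.10, adjusted p = 0.000364), moving with the endothelial markers above, whose part was not tested. Of the 9 Sp genes, which share the GC box, 4 could be tested. *Sp3* was higher (0.60) and *Sp2* lower (-0.40) in control KCs than in AMs, and in CRE+ AMs *Sp2* was lower in the CD11b- population (-0.43, adjusted p = 0.0241) and *Sp3* higher in the CD11b+ population (0.40, adjusted p = 0.00358).

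Of 12 co-repressor and co-activator genes, none passed in Tim4+ KCs (edgeR), where 3.63% of all genes were higher and 2.46% lower. In Tim4- KCs 1 was higher and 2 lower, close to the 12.2% and 13.2% over all genes. In CD11b- AMs 3 were lower, against 12.4%, and in CD11b+ AMs 1 was higher and 4 lower, against 22.8% and 20.5%. *Sin3b*, a Sin3 scaffold gene, fell in both AM populations (log2 fold change -0.20 and -0.40), as did *Sap30* (-0.35 and -0.81), which encodes a subunit of the Sin3 complex, and *Sap30* rose in Tim4- KCs (0.52, adjusted p = 0.00271). Of the 6 ERK5 and MEF2 genes upstream of *Klf2* and *Klf4*, 3 were higher and 1 lower in control KCs than in AMs, against 33.3% and 29.9%. *Mapk7*, which encodes ERK5, was at 0.95 and *Mef2a* at 1.40. In CD11b+ AMs 2 were higher, *Mef2a* (0.38) and *Mef2d* (0.40), and in CD11b- AMs *Mef2c* was lower (-2.02). In Tim4+ KCs *Mef2c* was higher (1.28), and in Tim4- KCs *Mef2c* was higher (0.87) and *Mef2a* (-0.39) and *Map3k3* (-0.30) lower. The shares of all genes in these CRE+ comparisons are those given above for the co-repressor and co-activator genes.

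Of 10 genes reported as KLF2 or KLF4 targets, all could be tested in KCs and 9 in AMs. Between control KCs and AMs 6 were higher and 3 lower, against 33.3% and 29.9% of all genes, and the directions were mixed, with *Eng* at 6.08 and *Thbd*, which encodes thrombomodulin, and *Cdkn1a* at -3.50 and -4.74 on the log2 scale. In CD11b+ AMs 7 were higher and none lower, against 22.8% and 20.5%, with a median log2 fold change of 1.77 against -0.0052 over all genes. They included *Thbd* (1.37, adjusted p = 4.34e-09), *Cd14* (1.28, adjusted p = 4.9e-07) and *Arg1* (3.03, adjusted p = 0.000321). In CD11b- AMs 3 were higher and none lower, against 13.3% and 12.4%. In Tim4+ KCs *Itgb7* (1.19) and *Cdkn1a* (2.07) were higher and *Cd14* (-0.85) lower, against 3.63% and 2.46%. In Tim4- KCs 2 were higher and 4 lower, against 12.2% and 13.2%, among the lower *Eng* (-1.45) and *Cd14* (-0.79), and *Eng*, *Nos3* and *S1pr1* are also endothelial genes.

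The TGF-beta list set beside *Klf10* and *Klf11* held 9 genes. Between control KCs and AMs 4 were higher and 4 lower, against 33.3% and 29.9% of all genes. Among them were *Smad7* (2.68), an inhibitor induced by the pathway, and *Tgfbr1* (-1.32). In CD11b- AMs 4 were lower and none higher, against 12.4% and 13.3% of all genes. In CD11b+ AMs 3 were lower and 1 higher, against 20.5% and 22.8%. The receptor gene *Tgfbr1* fell by 0.34 on the log2 scale in CD11b- AMs and by 0.63 in CD11b+ AMs, and the ligand gene *Tgfb1* fell by 0.48 and 0.47. *Smad7* passed in neither, at -0.19 and -0.32. In KCs 8 of the 9 could be tested, with none past the threshold in Tim4+ KCs. In Tim4- KCs 1 was higher and 1 lower, *Tgfbr1* (0.57) and *Tgfbr2* (-0.41), against 12.2% and 13.2% of all genes. The glucocorticoid list set beside *Klf9* held 7 genes, among them *Nr3c1*, which encodes the receptor. In CD11b+ AMs 4 were higher and 1 lower, against 22.8% and 20.5%, and in CD11b- AMs 1 was higher and 2 lower, against 13.3% and 12.4%. *Per1* was lower in both CD11b- and CD11b+ AMs (-0.60 and -0.65), while *Tsc22d3* was higher in both (0.27 and 0.24). In KCs 6 of the 7 could be tested, with none past the threshold in Tim4+ KCs. In Tim4- KCs *Dusp1* was higher (0.93, adjusted p = 0.000535 in edgeR) and *Nr3c1* lower (-0.49, adjusted p = 0.000226), against 12.2% and 13.2%.

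Across the 33 samples, which fall into KCs and AMs, the genes with the profile most like each member were ranked by Pearson's r of log2 CPM among 13274 genes, as a description. *Klf4* was closest to *Ptpn12* (r = 0.988), *App* (0.987) and *Slc6a6* (0.986), and *Klf2* to *Kctd12* (0.937), *Fcna* (0.934) and *Itch* (0.931). *Klf7* was closest to *Rcn1* (0.963), *Klf3* to *Ssh2* (0.953), *Klf6* to *Slc38a2* (0.945), *Klf13* to *Prr14* (0.923) and *Klf16* to *Ldah* (0.896). *Klf9* and *Klf10* both had *Fam212a* as the closest gene (0.854 and 0.882), and *Klf11* was closest to *Myo7a* (0.793).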

How the data were processed

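RNA was sequenced from 33 samples of sorted cells. The authors trimmed reads with Trimmomatic 0.35, checked them with FastQC 0.11.4, mapped them to mm10 with TopHat2 2.1.0 and SAMtools 0.1.18 and counted them with HTSeq-count (versions from the submitters' processing notes); the annotation and strand setting are not given in the sources used here. The authors deposited raw read counts per gene symbol, 24421 genes and 5 tally rows (5.88 to 10.1% of reads), which were left out. Without the strand setting, reads of a gene and its antisense partner cannot be told apart.

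The tests used edgeR 4.0.16 in R 4.3.3 (TMM factors, filterByExpr, quasi-likelihood test) and adjusted by the Benjamini-Hochberg method over all tested genes; a call was an adjusted p under 0.05. Each tissue's 3 groups shared 1 fit, control KCs and control AMs another, and the interaction used all 33 samples. SE was the fold change over the square root of F. The 95% intervals applied a normal spread to this SE, so they are approximate and narrower than those of the test itself. The script was tested on simulated data. Alternatives were limma-voom (limma 3.58.1, whose voom step the study used for normalization), DESeq2 1.42.0, RLE factors, other filters and fits, a replicate block and each sample left out. Log2 CPM used a prior count of 0.5.

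Same-numbered Tim4+ and Tim4- KC samples deviated together (r of the deviations from the group means 0.112 to 0.251 over 6 pairs, a pairing found in the data); in each other comparison at least 1 pair had r of 0.1 or less. Replicates of a group differed by more than sampling noise. Positions and lengths came from GENCODE M21 (GRCm38), promoters from RefSeq. By rule, every member, the *Zeb2* gene, the 3 genes most like each member and up to 3 genes of each list with the smallest adjusted p could be named; other genes were named after their values were seen. The members and gene lists were chosen with earlier results of these data known. The values of 1 gene in the TGF-beta list are not reported here.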

Additional observations from a re-analysis of the deposited data

Results flagged for a closer look

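*Klf16* in replicate 6 of the Tim4- KCs, at 9.01 CPM, stood apart from the other 5 samples of its group, the 1 such sample in 60 tests of a member in a group, where chance gives about 1 in 20. *Klf9* and *Klf10* changed differently in CRE+ KCs and CRE+ AMs by the interaction term, by 0.74 and 1.04 on the log2 scale. Both fell less in KCs.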

How the results depend on the processing

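Of 1820 alternative values of single members, 1677 kept their direction and side of the threshold, 87 lost a call, 17 gained one and 39 changed sign, with 0 of these past the threshold before or after; the cause was not tested. With 2-fold added to the threshold the members past it were 4 for control KCs against control AMs, 0 and 1 for Tim4+ and Tim4- KCs, 0 between these, 1 and 3 for CD11b- and CD11b+ AMs, 0 between these and 1 for the interaction. In Tim4- KCs limma-voom, RLE factors and no filter each gave 1 member. Between Tim4- and Tim4+ KCs limma-voom, no filter and the fit of only these 2 groups each gave 0. The fit of all samples gave 5 between CD11b+ and CD11b- AMs. KC replicates 1 to 4 alone gave 0 in Tim4+ KCs, and replicates 5 and 6 alone, chosen after seeing the data, 0 in all 3 KC comparisons.

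Leaving out 1 sample gave 7 to 9 members for control KCs against control AMs, 0 to 1 for Tim4+ KCs, 1 to 3 for Tim4- KCs, 0 to 1 between these, 7 for CD11b- AMs, 6 to 7 for CD11b+ AMs, 6 to 8 between these and 1 to 3 for the interaction. With 1 sample left out, the log2 fold change crossed 0 without a call in Tim4+ KCs for *Klf7* from -0.17 to 0.0193 and *Klf16* from -0.18 to 0.0208. It did so in Tim4- KCs for *Klf13* from -0.17 to 0.0167 and *Klf6* from -0.0086 to 0.11. It did so in Tim4- against Tim4+ KCs for *Klf10* from -0.0820 to 0.0472, *Klf2* from -0.11 to 0.13, *Klf11* from -0.00261 to 0.35 and *Klf3* from -0.0118 to 0.0817. It did so in CD11b- AMs for *Klf6* from -0.0434 to 0.0786 and in CD11b+ AMs for *Klf3* from -0.0253 to 0.0900. With limma-voom the sign changed, again without a call, for *Klf10* (0.000323) in Tim4- against Tim4+ KCs, *Klf6* (-5.53e-05) in CD11b- AMs. With KC replicates 1 to 4 alone the sign changed, again without a call, for *Klf16* (0.0236) in Tim4+ KCs, *Klf6* (-0.0698) in Tim4- KCs, *Klf2* (-0.0199), *Klf3* (-0.00804), *Klf10* (0.0126) in Tim4- against Tim4+ KCs. With replicates 5 and 6 alone the sign changed, again without a call, for *Klf2* (0.0204), *Klf6* (0.20), *Klf11* (0.0102) in Tim4+ KCs, *Klf2* (0.12), *Klf3* (0.0270), *Klf16* (0.0738) in Tim4- KCs, *Klf4* (0.35), *Klf11* (-0.15), *Klf16* (0.36) in Tim4- against Tim4+ KCs.

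With the replicate number as a block, 0 members remained between Tim4- and Tim4+ KCs. In the other comparisons the labels give no link between samples beyond a number (r of the deviations of same-numbered samples from -0.07 to 0.21). There the block added *Klf2* in Tim4- KCs (-0.37, adjusted p = 0.0428), *Klf11* between control KCs and AMs (-0.68, 0.0194) and *Klf3* between CD11b+ and CD11b- AMs (0.22, 0.0462), and it lost *Klf4* in Tim4- KCs (0.0775) and *Klf10* between control KCs and AMs (0.0615). All 5 sample numbers matched best with themselves between CD11b+ AMs and each of the other AM groups, a hint from the data only. Whether same-numbered CD11b+ and CD11b- samples came from the same mouse is not stated. CPM on library totals gave 444 CPM for *Klf6* and 156 CPM for *Klf13* in CD11b+ AMs. A gene below about 0.306 CPM, which is 3 counts in the shallowest library, cannot be told from 0.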
